A study of Mus musculus with 22 samples.

Results

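Fibroblasts isolated from mouse hearts 5 days after MI were compared with fibroblasts from the hearts of sedentary mice. The label MI is read here as myocardial infarction, the death of heart muscle after a coronary artery is blocked. The libraries were chosen by their labelled condition alone: 2 MI libraries and 3 sedentary libraries, 5 of the 22 in the series, across all 23359 genes of the deposited table. Both groups were wild-type male C57BL/6 mice of postnatal week 10 to 14, and no transgene, allele or drug is named for either. The rest of the series holds fibroblasts 3 and 10 days after TAC (an abbreviation the labels do not expand, read here as transverse aortic constriction, a pressure overload of the heart), fibroblasts 3 days after a sham procedure, fibroblasts after 4 and 10 days of swimming, and sedentary cardiomyocytes. There is no sham group for the MI operation at 5 days, so surgery and infarct cannot be told apart in this comparison.

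Cardiac fibroblasts make and turn over the collagen-rich matrix that holds the heart muscle together. After an infarct, resident fibroblasts multiply, acquire a contractile cytoskeleton (cells in that state are called myofibroblasts) and lay down a collagen scar in place of the lost muscle. The first days of that response also bring inflammatory cells into the tissue, and a fibroblast preparation can carry some of them along.

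Poly-A RNA was sequenced from stranded libraries, and each gene has an FPKM value per library (fragments per kilobase of transcript, scaled to the mapped fragments of the library). FPKM corrects for gene length and library size but keeps no read counts, so the depth of each library is unknown. The number of genes at an FPKM of at least 1 was 7681 and 7868 in MI libraries, against 7281, 7016 and 7414 in sedentary libraries. Across the genes tested, log2(FPKM + 1) of the MI pair had a Pearson r of 0.9713, and the 3 sedentary pairs had 0.9551, 0.9737 and 0.9328. These are correlations across genes, which are not independent replicates.

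Some of the libraries stand apart within their groups. MI replicate 2 had less of all 41 resting fibroblast genes tested than MI replicate 1, with a median difference of -0.76 log2 units, and more of 28 of 30 contractile genes and 18 of 19 mitosis genes. MI replicate 1 carried 1289 FPKM of the ribosomal RNA gene Rn45s, against 119.6 in MI replicate 2 and 171, 202 and 273 in the sedentary libraries. Sedentary replicate 2 was the lowest of the 3 sedentary libraries for all 45 interferon genes tested. It was also the lowest for 5549 of all 9425 genes tested. Among other lists, it was the lowest for 44 of 51 chemokine and cytokine genes and for 0 of 28 endothelial markers. Sedentary replicate 3 is titled differently from the other sedentary libraries and, like both MI libraries, carries a date-like number in its title. The number is the same in both MI libraries and another in the sedentary library, so what it stands for cannot be told apart from the condition. The labels do not say whether libraries came from separate animals. The p-values and SE rest on a spread within groups estimated over all 19 fibroblast libraries of the series, not on the MI and sedentary libraries alone. That spread is between samples and may be technical.

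The fibroblast label was checked against genes that mark these cells. Pdgfra, the platelet-derived growth factor receptor used to sort fibroblasts, had 9.93 and 9.22 FPKM in MI libraries, against 10.9, 11.2 and 8.44 FPKM in sedentary libraries. The groups overlapped, with a log2 difference of -0.07 ± 0.30 (SE, adjusted p = 0.925, limma with Benjamini-Hochberg adjustment). The surface protein Thy1 had 8.79 and 11.5 FPKM in MI libraries, against 9.58, 6.83 and 7.45 FPKM in sedentary libraries. Other fibroblast markers, described below, did not stay level. Col1a1 and Col1a2 were higher and Gsn and Dcn lower in MI libraries at an adjusted p under 0.05 in limma, and Tcf21 did not pass. The levels of Pdgfra and Thy1 alone do not show that fibroblast content was equal. Cells of other types were present in both groups. Summed over 43 macrophage, monocyte and dendritic cell markers, FPKM ranged from 3720 to 4190 in MI libraries, against 2120 to 3380 in sedentary libraries, and none of the markers was at 0 in either group. Ptprc, which encodes the pan-leukocyte protein CD45, had 4.70 and 5.62 FPKM in MI libraries, against 8.59, 3.58 and 5.97 FPKM in sedentary libraries. In these bulk samples, more cells of a type and more RNA per cell cannot be told apart, and the part of other cells in the differences below was not tested unless a value is given.

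Of 9425 genes at an FPKM of at least 1 in at least 2 fibroblast libraries, 842 were higher (8.93%) and 221 lower (2.34%) in MI than in sedentary fibroblasts, at a Benjamini-Hochberg adjusted p under 0.05 in limma. These shares are the background for the counts of every gene list below. In 2863 genes (30.4%) both MI libraries lay above all 3 sedentary libraries, and in 948 genes (10.1%) both lay below. The median log2 difference over all genes tested was 0.105, and once the libraries were scaled to a common median the split of calls was 578 higher and 438 lower. MI replicate 2 carried much of the count: without it, 285 genes were higher and 25 lower. Of the 842 genes called higher, 258 were called again whichever of the 5 libraries was left out, and of the 221 called lower, 19 were.

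The leading rises were genes of the scar matrix. Cthrc1, a secreted protein of activated fibroblasts that bears a short collagen repeat, had 114 and 131 FPKM in MI libraries, against 0.117, 0.237 and 0.107 FPKM in sedentary libraries. The gene was close to absent in sedentary fibroblasts, and its log2 difference was 6.74 ± 0.67 (SE, adjusted p = 5.39e-06). Postn, the gene of periostin, a matricellular protein of healing tissue, had 421 and 369.7 FPKM in MI libraries, against 9.60, 9.68 and 4.44 FPKM in sedentary libraries. Group means were 395 and 7.91 FPKM, and the log2 difference was 5.54 ± 0.40 (adjusted p = 5.05e-08). Spp1 (osteopontin, a secreted phosphoprotein made by activated macrophages and fibroblasts) had 34.3 and 110.0 FPKM in MI libraries, against 0.867, 1.22 and 0.886 FPKM in sedentary libraries. It rose by 4.98 ± 0.44 log2 units (adjusted p = 9.7e-07), and MI replicate 2 was the higher of the MI pair.

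Thbs4 (thrombospondin-4, a matrix protein of tendon and injured heart) had 39.1 and 33.4 FPKM in MI libraries, against 0.806, 0.889 and 0.638 FPKM in sedentary libraries, a 46.6-fold difference of means. Ltbp2, which binds elastic microfibrils, had 30.1 and 34.0 FPKM in MI libraries, against 0.965, 0.827 and 0.878 FPKM in sedentary libraries. Their log2 differences were 4.39 ± 0.27 for Thbs4 (adjusted p = 8.62e-09) and 4.13 ± 0.24 for Ltbp2 (adjusted p = 3.37e-09). C1qtnf3, a secreted C1q/TNF-related protein, had 22.6 and 11.3 FPKM in MI libraries, against 0.0990, 0.0452 and 0.118 FPKM in sedentary libraries. All of these stayed called with any 1 library left out.

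**Figure D1:**
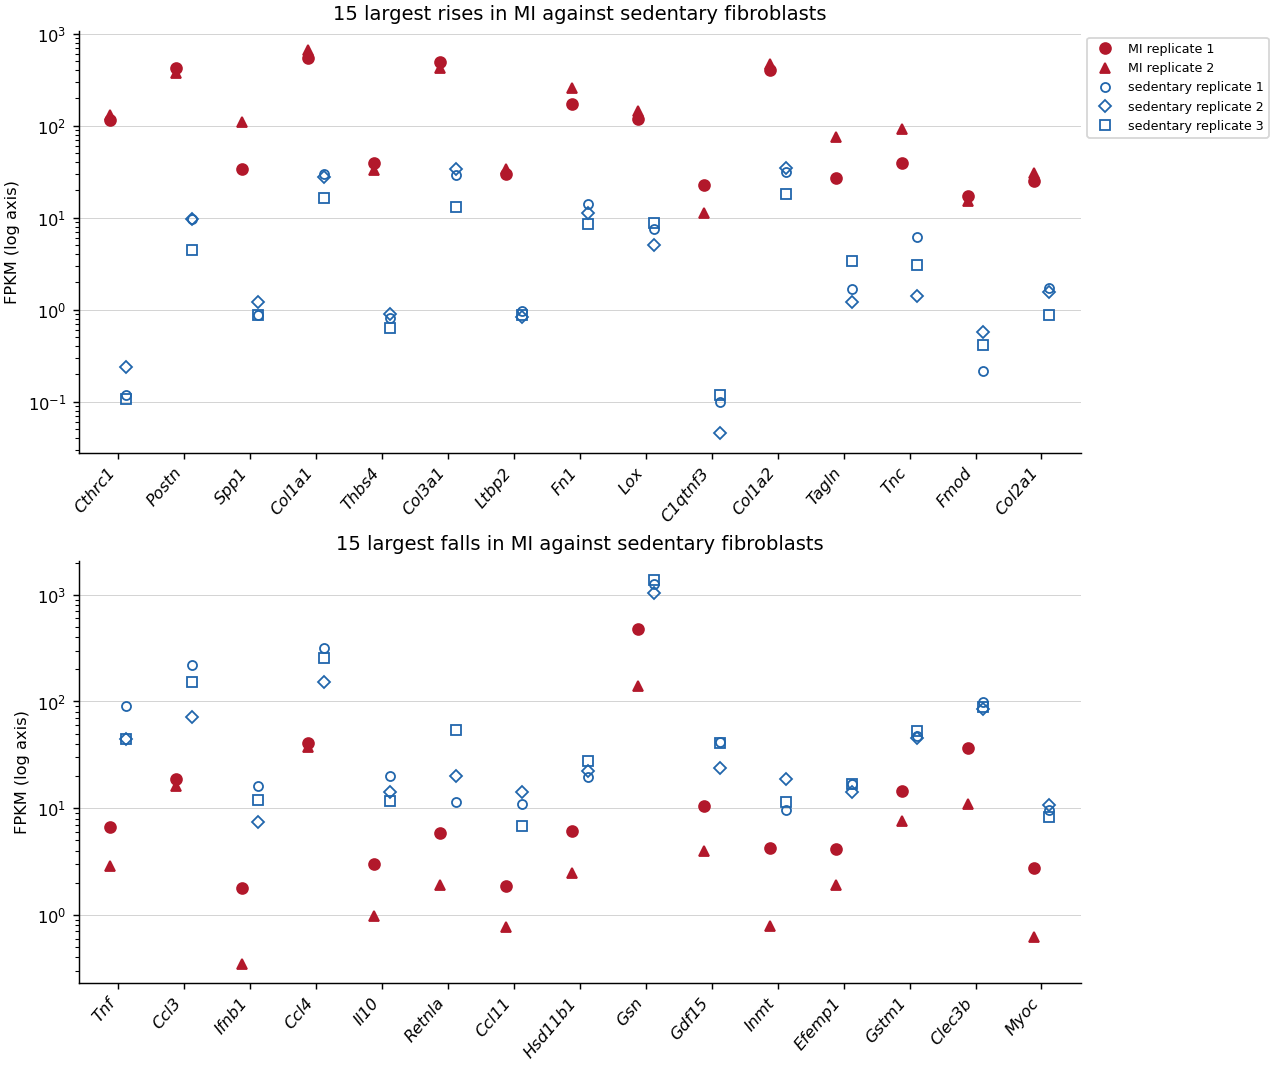
The plot of leading genes gives FPKM on a log axis for the 15 largest rises and the 15 largest falls among called genes with a mean of at least 5 FPKM in the higher group, with 1 point per library and the MI libraries listed before the sedentary ones. Cthrc1 heads the rises, at 114 and 131 FPKM in MI libraries against 0.107 to 0.237 FPKM in sedentary libraries, and Tnf heads the falls, at 2.89 and 6.73 FPKM in MI libraries against 44.3 to 90.3 FPKM in sedentary libraries.

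Fibrillar collagens, which assemble into the load-bearing fibres of the scar, rose together. Of 7 tested, 6 were called higher and none lower, beside 8.93% of all genes called higher, with a median log2 difference of 3.61 beside 0.105 over all genes. Col1a1, the main chain of type I collagen, had 539 and 658 FPKM in MI libraries, against 29.6, 27.8 and 16.3 FPKM in sedentary libraries. Its log2 difference was 4.59 ± 0.37 (adjusted p = 1.74e-07). Its partner chain Col1a2 had 403 and 471 FPKM in MI libraries, against 31.0, 34.9 and 18.0 FPKM in sedentary libraries. Col3a1, the type III chain of early scars, had 493 and 424 FPKM in MI libraries, against 28.8, 33.9 and 13.1 FPKM in sedentary libraries. In all 3 genes the lowest MI library lay more than 10-fold above the highest sedentary library.

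Col2a1, the type II chain best known from cartilage, had 25.2 and 30.6 FPKM in MI libraries, against 1.72, 1.58 and 0.867 FPKM in sedentary libraries, a log2 difference of 3.61 ± 0.28 (adjusted p = 1.03e-07). The type V chains, which start collagen fibrils, were at lower folds: Col5a1 had 36.7 and 43.4 FPKM in MI libraries, against 6.71, 6.91 and 2.70 FPKM in sedentary libraries, and Col5a2 differed 7.13-fold. Leaving out any 1 library kept 6 fibrillar collagens called. Summed over the fibrillar collagen list, FPKM ranged from 1550 to 1680 in MI libraries, against 59.1 to 114 in sedentary libraries.

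Among 14 other collagens tested, 9 were higher and 1 lower, with a median of 0.84. Col12a1, a collagen that decorates fibrils under tension, had 5.94 and 9.39 FPKM in MI libraries, against 0.351, 0.246 and 0.195 FPKM in sedentary libraries, and rose by 2.75 ± 0.13 log2 units (adjusted p = 6.61e-10). Col8a1, a short-chain collagen of vessel walls and healing tissue, differed 4.91-fold, and Col14a1, another fibril-associated collagen, 5.04-fold. The basement membrane chain Col4a1 did not pass the test: it had 35.5 and 35.1 FPKM in MI libraries, against 32.7, 25.6 and 25.9 FPKM in sedentary libraries (log2 difference 0.33 ± 0.25, adjusted p = 0.459). Without MI replicate 2, 5 of these collagens were higher and none lower.

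The enzymes and chaperones that finish collagen moved with it. Of 26 collagen maturation genes tested, 19 were higher and 1 lower, with a median of 0.98. Lox, the lysyl oxidase that starts collagen and elastin crosslinks, had 119 and 145 FPKM in MI libraries, against 7.46, 5.07 and 8.67 FPKM in sedentary libraries, a log2 difference of 4.06 ± 0.30 (adjusted p = 6.95e-08). The related Loxl3 had 10.9 and 16.5 FPKM in MI libraries, against 2.19, 1.71 and 1.87 FPKM in sedentary libraries. Plod2, the lysyl hydroxylase of telopeptides, the short ends through which collagen is crosslinked, had 11.5 and 14.4 FPKM in MI libraries, against 1.62, 1.44 and 1.36 FPKM in sedentary libraries. Neither gene's groups overlapped.

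P4ha3, a catalytic subunit of prolyl hydroxylase, had 3.35 and 4.55 FPKM in MI libraries, against 0.117, 0.0724 and 0.118 FPKM in sedentary libraries, a 38.5-fold difference of means. Serpinh1, which encodes the collagen chaperone HSP47, was abundant in both groups, with 172 and 257 FPKM in MI libraries, against 59.2, 49.0 and 83.2 FPKM in sedentary libraries. It differed by 1.74 ± 0.21 log2 units (adjusted p = 2.35e-05), the prolyl isomerase Fkbp10 by 1.92 ± 0.19 (adjusted p = 2.63e-06) and the procollagen peptidase Adamts2 by 1.51 ± 0.24 (adjusted p = 0.000409). In the secretory pathway that exports the product, 12 of 31 genes tested were higher and none lower, with a median of 0.56. The KDEL receptor gene Kdelr3, which returns chaperones to the endoplasmic reticulum, had 18.5 and 20.9 FPKM in MI libraries, against 8.56, 7.66 and 9.05 FPKM in sedentary libraries. Leaving out MI replicate 2 left 1 secretory gene called. Of 20 genes of the endoplasmic reticulum stress response, 3 were higher, with none left without MI replicate 2 and 7 without sedentary replicate 3.

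Matricellular proteins, which sit in the matrix and signal to cells instead of bearing load, were among the most changed. Of 27 tested, 13 were higher and 3 lower, with a median of 0.98. Tnc, the tenascin of wounds and embryos, had 39.5 and 91.4 FPKM in MI libraries, against 6.21, 1.41 and 3.10 FPKM in sedentary libraries, a log2 difference of 3.88 ± 0.37 (adjusted p = 1.82e-06). Sparc, a collagen-binding glycoprotein, was at 692 and 683 FPKM in MI libraries, the highest level of any named rise, against 138, 123 and 125 FPKM in sedentary libraries. Fn1 (fibronectin, the provisional matrix on which collagen is laid) had 170.3 and 255 FPKM in MI libraries, against 14.0, 11.3 and 8.52 FPKM in sedentary libraries. For Fn1 the groups lay 18.9-fold apart by their means.

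Wisp1, a secreted CCN-family protein, had 9.24 and 12.2 FPKM in MI libraries, against 0.213, 0.0790 and 0.219 FPKM in sedentary libraries, a 63.1-fold difference. Comp, a pentameric thrombospondin of cartilage and tendon, had 14.4 and 10.1 FPKM in MI libraries, against 1.07, 1.12 and 1.37 FPKM in sedentary libraries. Cilp, a cartilage matrix protein also made by cardiac fibroblasts, had 73.3 and 46.9 FPKM in MI libraries, against 8.04, 5.35 and 6.66 FPKM in sedentary libraries (log2 difference 2.97 ± 0.35, adjusted p = 1.55e-05). Tnxb, Sparcl1 and Smoc2 were the members called lower, and none of the 3 was called without MI replicate 2. Without that library 12 members were higher.

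Elastic fibre genes followed the same direction, with 9 of 17 higher, 1 lower and a median of 0.98. Eln, which encodes tropoelastin, had 94.0 and 35.3 FPKM in MI libraries, against 6.61, 3.19 and 6.27 FPKM in sedentary libraries, a log2 difference of 3.26 ± 0.36 (adjusted p = 6.55e-06). Mfap4, a microfibril protein, had 179 and 116 FPKM in MI libraries, against 25.6, 16.3 and 24.3 FPKM in sedentary libraries. In both genes MI replicate 1 was the higher of the MI pair. The single fall was Efemp1 (fibulin-3), with 4.16 and 1.91 FPKM in MI libraries, against 16.9, 14.1 and 16.8 FPKM in sedentary libraries. It fell by 2.12 ± 0.31 on the log2 scale (adjusted p = 0.000148) and stayed called in every leave-out.

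Small leucine-rich proteoglycans, which bind collagen fibrils and set their spacing, split in direction. Of 29 proteoglycan and hyaluronan genes tested, 9 were higher and 3 lower, with a median of 0.36. Fmod (fibromodulin) had 17.4 and 15.4 FPKM in MI libraries, against 0.216, 0.571 and 0.412 FPKM in sedentary libraries, a log2 difference of 3.64 ± 0.24 (adjusted p = 1.6e-08). Bgn (biglycan) had 569.8 and 528 FPKM in MI libraries, against 287, 235 and 256 FPKM in sedentary libraries. Dcn (decorin), the close relative of biglycan, went the other way, with 526 and 262 FPKM in MI libraries, against 850.3, 721 and 952 FPKM in sedentary libraries. Decorin fell by 1.17 ± 0.32 on the log2 scale (adjusted p = 0.0226). The decorin call was lost without MI replicate 2 (-0.67, adjusted p = 0.484), without sedentary replicate 1 (adjusted p = 0.0614) and without sedentary replicate 3 (adjusted p = 0.0522), and no proteoglycan was lower without MI replicate 2. The biglycan call held in every leave-out.

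Of 29 matrix proteases and their inhibitors tested, 10 were higher and 2 lower, with a median of 0.20. The number lower was 0 without MI replicate 2 and 1 without MI replicate 1, sedentary replicate 1 or sedentary replicate 3. Timp1, an inhibitor of matrix metalloproteinases, had 95.1 and 191 FPKM in MI libraries, against 16.7, 6.20 and 18.1 FPKM in sedentary libraries, a log2 difference of 3.34 ± 0.50 (adjusted p = 0.000278). Its locus as listed in the table is shared with another gene, as are those of Tagln, Ltbp2, Cnn2, Plod2, Loxl3, Fkbp10, Kdelr3, Fgf7, Runx2, Cd34, Smoc2, Plac9b, Myoc, Rnase4, Rarres2, Timp3, Il1b and Myh6, and whether the authors counted by strand is not given in the sources used here, so the values of these genes are uncertain. Timp3, another inhibitor of the family, had 41.3 and 32.7 FPKM in MI libraries, against 47.0, 60.8 and 43.5 FPKM in sedentary libraries, and did not pass the test (adjusted p = 0.368). Mmp14, the membrane-bound collagenase, had 44.7 and 61.9 FPKM in MI libraries, against 17.6, 10.2 and 19.2 FPKM in sedentary libraries. Adam12, a membrane protease of developing mesenchyme, differed 30.6-fold (log2 difference 1.97 ± 0.14, adjusted p = 2.62e-08).

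Contractile and cytoskeletal genes of the myofibroblast rose in part. Of 30 tested, 12 were higher and none lower, with a median of 0.64. Acta2, the smooth muscle actin that defines myofibroblasts, had 25.5 and 83.8 FPKM in MI libraries, against 10.3, 5.04 and 16.5 FPKM in sedentary libraries. The groups did not overlap and the log2 difference was 2.16 ± 0.44 (adjusted p = 0.00345), but the MI libraries lay further from each other than MI replicate 1 lay from the highest sedentary library. Without MI replicate 2 the Acta2 difference was 1.32 (adjusted p = 0.159), and 4 genes of the list were called. Integrin subunits and related matrix receptors, which tie this cytoskeleton to the matrix, had 6 of 14 tested members higher and none lower, with 3 called without MI replicate 1, 1 without MI replicate 2 and 3 without sedentary replicate 2. Tagln, an actin-binding protein, had 26.9 and 74.6 FPKM in MI libraries, against 1.66, 1.21 and 3.43 FPKM in sedentary libraries (log2 difference 3.95 ± 0.42, adjusted p = 5.38e-06).

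Other members lay closer together in the 2 MI libraries. Csrp2, a LIM-domain protein of actin filaments, had 41.3 and 53.5 FPKM in MI libraries, against 6.80, 5.46 and 6.16 FPKM in sedentary libraries. Palld (palladin, an actin crosslinker) had 1.83 FPKM in each MI library, against 0.255, 0.146 and 0.259 FPKM in sedentary libraries. Actn1, the non-muscle alpha-actinin, had 10.0 and 15.9 FPKM in MI libraries, against 4.30, 4.27 and 4.09 FPKM in sedentary libraries. These 3 and Tagln were called with any 1 library left out. Vim (vimentin), an intermediate filament protein present in all mesenchymal cells, had 404 and 411 FPKM in MI libraries, against 221, 207 and 211 FPKM in sedentary libraries. Its log2 difference was 0.93 ± 0.21 (adjusted p = 0.00748), with an adjusted p of 0.0962 without MI replicate 2. Pericyte and smooth muscle markers, which share Acta2, Tagln, Des and Notch3 with the contractile and Notch lists, had 6 of 17 tested members higher and none lower, and their summed FPKM ranged from 147 to 238 in MI libraries, against 69.9 to 96.1 in sedentary libraries. Of these, 2 were called without MI replicate 2. The part of pericytes in the contractile genes was not tested.

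Many contractile genes are targets of serum response factor, which binds a short DNA element called the CArG box. Promoter windows of RefSeq transcripts (GRCm38.p6), from 250 bases before to 50 after the start, were searched on both strands for the CArG consensus. It was found in 5 of 28 contractile genes with a window (17.9%) and in 3 of 10 called ones (30%), beside 1.81% of the 27025 genes with a searched window. The list has 33 members, 12 of them called. Tagln and Csrp2, both called higher, had no searched window, and the window of Acta2 held no match. Windows on a single chromosome were left out of the search, for the lists and for all genes alike, here and for the elements below. The 3 called genes with a match are shown because they carry the element close to the start. Each line holds the 170 bases before the transcript start, 5′ to 3′ on the gene's strand, with the CArG match in capitals.
Fhl2, first start: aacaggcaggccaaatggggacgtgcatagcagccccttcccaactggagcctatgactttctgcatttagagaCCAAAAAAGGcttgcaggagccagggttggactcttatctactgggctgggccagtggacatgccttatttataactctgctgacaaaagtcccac
Fhl2, second start: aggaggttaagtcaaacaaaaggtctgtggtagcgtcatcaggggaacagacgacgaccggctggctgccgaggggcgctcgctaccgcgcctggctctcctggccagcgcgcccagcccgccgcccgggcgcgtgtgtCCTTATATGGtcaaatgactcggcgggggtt
Cnn2: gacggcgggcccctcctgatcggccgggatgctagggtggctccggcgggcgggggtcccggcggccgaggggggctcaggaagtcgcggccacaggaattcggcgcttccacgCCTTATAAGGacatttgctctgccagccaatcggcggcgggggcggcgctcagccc
Myl9: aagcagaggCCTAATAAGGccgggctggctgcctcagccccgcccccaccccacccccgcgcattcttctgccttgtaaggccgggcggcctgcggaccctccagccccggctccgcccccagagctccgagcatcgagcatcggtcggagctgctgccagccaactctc
Fhl2, a LIM-domain partner of actin and of transcription factors, had a match before each of its listed starts, chr1:43196762-43196931 and chr1:43163962-43164131, both on the minus strand. Its level was 15.7 and 17.1 FPKM in MI libraries, against 6.83, 2.87 and 9.27 FPKM in sedentary libraries, and the adjusted p of 0.0278 was over 0.05 without MI replicate 1, MI replicate 2 or sedentary replicate 2 (0.0966, 0.224 and 0.109). The Cnn2 window, chr10:79988430-79988599 on the plus strand, belongs to calponin-2, at 6.45 and 12.8 FPKM in MI libraries, against 2.87, 3.35 and 2.68 FPKM in sedentary libraries (adjusted p = 0.00114, and 0.0735 without MI replicate 2). The Myl9 window, chr2:156775294-156775463 on the plus strand, belongs to a myosin regulatory light chain at 49.1 and 62.5 FPKM in MI libraries, against 34.1, 30.1 and 44.7 FPKM in sedentary libraries. Its call (adjusted p = 0.0333) did not hold without MI replicate 2, sedentary replicate 1 or sedentary replicate 2 (0.425, 0.104 and 0.101), nor with libraries scaled to a common median (0.0736). A match describes these letters only and shows no binding.

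Genes of cell division were called higher from very low levels. Of 60 mitosis genes, 19 passed the filter on low values and 41 did not. A gene near 0 in sedentary libraries passes only if it is higher elsewhere, so the 16 called higher, with a median of 0.92 over the 19, describe that subset and not all members. The number higher was 48 with no filter on low values, 2 with a filter at an FPKM of 5 and 11 with libraries scaled to a common median. Cdk1, the kinase that starts mitosis, had 0.816 and 2.02 FPKM in MI libraries, against 0.129, 0.133 and 0.111 FPKM in sedentary libraries, an 11.4-fold difference of means (log2 difference on the FPKM + 1 scale 1.06 ± 0.22, adjusted p = 0.00377). Ube2c, the ubiquitin carrier that drives exit from mitosis, had 1.43 and 3.53 FPKM in MI libraries, against 0.378, 0.755 and 0.375 FPKM in sedentary libraries. Cks1b, a cyclin-dependent kinase subunit, had 4.89 and 7.36 FPKM in MI libraries, against 1.81, 2.15 and 1.99 FPKM in sedentary libraries. In all 3 genes MI replicate 2 was the higher, and without it none of the 3 was called (adjusted p = 0.171 for Cdk1, 0.262 for Ube2c and 0.135 for Cks1b).

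The spindle checkpoint gene Mad2l1 was the 1 mitosis gene called without MI replicate 2, with 1.12 and 2.22 FPKM in MI libraries, against 0.317, 0.320 and 0.474 FPKM in sedentary libraries. Mki67, the usual marker of cycling cells, was under the filter, with 0.487 and 0.862 FPKM in MI libraries, against 0.592, 0.751 and 0.101 FPKM in sedentary libraries, and the groups overlapped. Of 21 DNA replication genes tested (29 were under the filter), 5 were higher and none lower. None was called without MI replicate 2, and 3 were called without sedentary replicate 1 or without sedentary replicate 3.

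Promoters of mitosis genes commonly carry the cell cycle homology region (CHR), the element TTTGAA, which binds complexes that silence these genes in resting cells and activate them before division. It was found on either strand in 34 of 48 mitosis genes with a window (70.8%), beside 20.2% of all genes with a window, and in 7 of 40 DNA replication genes (17.5%). The CCAAT element, bound by NF-Y, was found in 33 of the 48 (68.8%), beside 41.1% of all genes. Of the called mitosis genes, 9 of 13 with a window held the CHR letters. The 3 genes described above are shown, each with the 170 bases before the start on the gene's strand and with CHR and CCAAT matches on either strand in capitals; no match of the one overlapped the other.
Cdk1: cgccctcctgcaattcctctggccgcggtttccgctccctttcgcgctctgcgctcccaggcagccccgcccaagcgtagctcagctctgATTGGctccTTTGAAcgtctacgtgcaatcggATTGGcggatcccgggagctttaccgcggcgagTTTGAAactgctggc
Ube2c: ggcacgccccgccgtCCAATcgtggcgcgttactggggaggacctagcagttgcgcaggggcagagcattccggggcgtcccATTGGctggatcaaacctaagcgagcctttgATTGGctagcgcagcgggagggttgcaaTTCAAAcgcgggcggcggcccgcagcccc
Cks1b: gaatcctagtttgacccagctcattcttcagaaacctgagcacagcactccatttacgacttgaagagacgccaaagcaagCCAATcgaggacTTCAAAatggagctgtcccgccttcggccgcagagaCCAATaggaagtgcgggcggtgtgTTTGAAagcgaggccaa
The Cdk1 window lies at chr10:69352913-69353082 on the minus strand, the Ube2c window at chr2:164769759-164769928 on the plus strand and the Cks1b window at chr3:89418292-89418461 on the minus strand.

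Tested Wnt pathway genes rose, and receptors and members of secreted antagonist families made up the calls. Of 34 Wnt genes, 17 were under the filter on low values, so the counts describe the tested members only. Of 17 tested, 10 were higher and none lower, with a median of 0.71, and 9 or 10 were called with any 1 library left out. The called receptors were Fzd1, Fzd2, Fzd7 and Fzd8. The called secreted antagonists were Sfrp1, Sfrp2, Sfrp4, Sfrp5 and Frzb, which bind Wnt proteins outside the cell. The remaining called member was Dkk3, of the secreted Dickkopf family. Sfrp2 had 54.7 and 25.4 FPKM in MI libraries, against 2.80, 3.26 and 2.87 FPKM in sedentary libraries, a log2 difference of 3.27 ± 0.34 (adjusted p = 3.33e-06). Sfrp1 had 28.6 and 25.7 FPKM in MI libraries, against 6.47, 6.45 and 4.67 FPKM in sedentary libraries. Frzb differed 3.36-fold, and the groups of all 3 genes were apart.

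In the transforming growth factor beta family, 6 of 30 genes tested were higher and 3 lower, beside 8.93% and 2.34% of all genes, with a median of 0.15. Among the ligands, Tgfb3 had 12.6 and 9.01 FPKM in MI libraries, against 2.38, 2.56 and 2.07 FPKM in sedentary libraries, a log2 difference of 1.81 ± 0.22 (adjusted p = 2.4e-05). Tgfb1, the ligand most often tied to fibrosis, had 15.6 and 16.2 FPKM in MI libraries, against 13.04, 11.04 and 17.4 FPKM in sedentary libraries, with overlapping groups (adjusted p = 0.703). Inhba, which encodes the activin A subunit, had 31.6 and 69.3 FPKM in MI libraries, against 11.7, 1.95 and 11.5 FPKM in sedentary libraries, and its adjusted p of 0.018 was 0.27 without MI replicate 2. The stress-induced ligand Gdf15 fell by 2.21 ± 0.37 on the log2 scale, with 10.6 and 4.00 FPKM in MI libraries, against 41.8, 23.7 and 40.4 FPKM in sedentary libraries. Without MI replicate 2, 2 genes of the family were higher and 1 lower, and 1 was lower without sedentary replicate 1 or without sedentary replicate 2.

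Of 38 growth factor and receptor genes tested, 14 were higher and 3 lower, with a median of 0.26, and 21 were not called. Another 11 were under the filter on low values, so these counts describe the tested members only. With a filter at an FPKM of 5, 7 were higher and 3 lower. Hgf, a growth factor for epithelial and endothelial cells, had 1.16 and 2.39 FPKM in MI libraries, against 0.130, 0.177 and 0.107 FPKM in sedentary libraries, a 12.8-fold difference of means (log2 difference 1.25 ± 0.13, adjusted p = 4.29e-06). Bdnf, a neurotrophin, had 2.09 and 2.61 FPKM in MI libraries, against 0.268, 0.201 and 0.131 FPKM in sedentary libraries. Hbegf, a membrane-anchored ligand of the epidermal growth factor receptor, had 20.1 and 23.0 FPKM in MI libraries, against 5.75, 6.40 and 7.50 FPKM in sedentary libraries. All 3 were separate between groups, as was Fgf7, at 5.04-fold. Fstl1, a secreted glycoprotein counted with the transforming growth factor beta family, was at a higher level, with 214 and 226 FPKM in MI libraries, against 93.8, 60.1 and 62.1 FPKM in sedentary libraries. The Notch ligand Jag1 had 14.8 and 11.4 FPKM in MI libraries, against 3.18, 3.64 and 3.02 FPKM in sedentary libraries. Its list of Notch and Hedgehog genes had 3 of 17 tested members higher and none lower, with a median of 0.03. These counts stand beside 8.93% and 2.34% of all genes. With libraries scaled to a common median, 1 was higher. The 3 growth factor falls were not called without MI replicate 2.

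Transcription factors of the embryonic epicardium and mesenchyme had 14 of 30 tested members higher and none lower, with a median of 0.35, and 9 without MI replicate 2. Another 12 members of this list were under the filter on low values, so the counts describe the tested members only. With a filter at an FPKM of 5, 4 were higher and none lower. Runx2, the master regulator of bone formation, had 2.09 and 2.29 FPKM in MI libraries, against 0.324, 0.356 and 0.371 FPKM in sedentary libraries, a log2 difference of 1.24 ± 0.10 (adjusted p = 9.27e-08). Snai1, a repressor of epithelial genes, had 4.50 and 9.94 FPKM in MI libraries, against 1.27, 1.73 and 1.30 FPKM in sedentary libraries. Twist1 differed 2.97-fold, and Meox1, a homeobox gene of activated cardiac fibroblasts, had 10.8 and 9.72 FPKM in MI libraries, against 3.88, 2.91 and 4.86 FPKM in sedentary libraries (log2 difference 1.22 ± 0.21, adjusted p = 0.000917). Tcf21, which marks resident cardiac fibroblasts, had 22.5 and 6.94 FPKM in MI libraries, against 31.8, 16.9 and 43.2 FPKM in sedentary libraries. The groups overlapped and Tcf21 did not pass the test (log2 difference -1.12 ± 0.41, adjusted p = 0.0918). Genes of cartilage, bone and tendon, which share Comp, Col2a1, Fmod, Postn, Cthrc1, Thbs4 and Runx2 with the lists above, had 9 of 14 tested members higher and 1 lower, with a median of 1.08. The other 24 members were under the filter on low values, so these numbers describe the tested subset only.

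**Figure D2:**
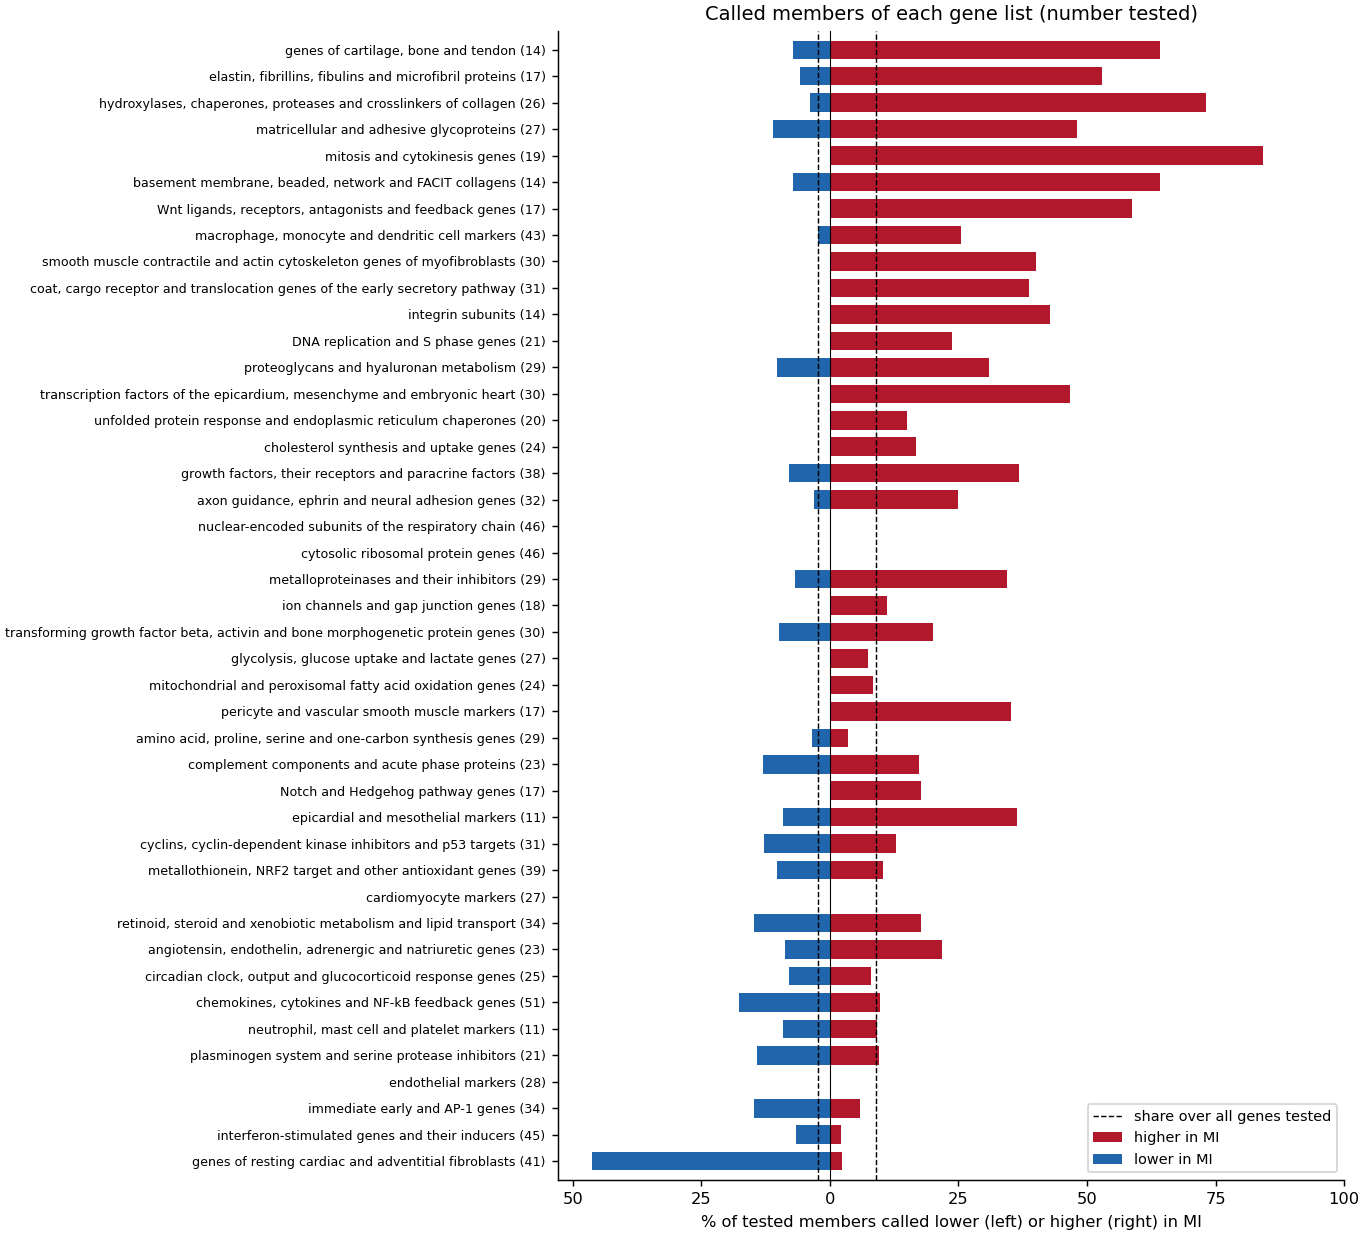
The plot of gene lists shows, for each list with at least 10 tested members, the percent of tested members called higher and called lower in MI against sedentary fibroblasts, and the dashed lines mark 8.93% and 2.34% for all 9425 genes tested. Of the collagen maturation genes 19 of 26 are called higher, and of the resting fibroblast genes 19 of 41 are called lower; for mitosis genes the bar covers the 19 of 60 members that passed the filter.

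The falls had their largest list in genes of resting cardiac and adventitial fibroblasts: 19 of 41 tested were lower, beside 2.34% of all genes, and 1 was higher (Mfap4), with a median of -0.82. Gsn (gelsolin, an actin-severing protein) had 476 and 138 FPKM in MI libraries, against 1268, 1033 and 1362 FPKM in sedentary libraries, the largest loss of FPKM of any called gene. It fell by 2.23 ± 0.55 on the log2 scale (adjusted p = 0.0141). Hsd11b1, which activates glucocorticoids inside cells, had 6.18 and 2.48 FPKM in MI libraries, against 19.4, 22.4 and 27.8 FPKM in sedentary libraries, and fell by 2.26 ± 0.33 (adjusted p = 0.000138). Inmt, a methyltransferase, had 4.22 and 0.781 FPKM in MI libraries, against 9.56, 18.9 and 11.4 FPKM in sedentary libraries.

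The peptidase gene Dpep1 had 31.1 and 10.4 FPKM in MI libraries, against 59.995, 60.1 and 66.9 FPKM in sedentary libraries. Pi16, a secreted protein of adventitial fibroblasts, had 53.6 and 24.1 FPKM in MI libraries, against 108, 73.5 and 67.6 FPKM in sedentary libraries. Cd34, a surface sialomucin of fibroblasts and endothelial cells, had 57.1 and 29.4 FPKM in MI libraries, against 86.4, 74.8 and 70.6 FPKM in sedentary libraries. In every one of these genes both MI libraries lay below all sedentary libraries, with MI replicate 2 the lower of the pair. Without MI replicate 2, Hsd11b1 was the 1 member still called; Gsn then differed by -1.35 (adjusted p = 0.337) and Pi16 by -0.59 (adjusted p = 0.436). Without MI replicate 1, 23 members were lower, and without sedentary replicate 1, 10. Outside the list, the tetranectin gene Clec3b fell by 2.11 ± 0.40 (adjusted p = 0.00194, and 0.112 without MI replicate 2) and Plac9b by 1.58 ± 0.23 (adjusted p = 0.000177), with Plac9b uncertain because a near-identical copy, Plac9a, could share its reads. Myoc, which encodes the secreted protein myocilin, had 2.76 and 0.628 FPKM in MI libraries, against 9.59, 10.7 and 8.19 FPKM in sedentary libraries (adjusted p = 0.000785, and 0.0545 without MI replicate 2). Rnase4, a secreted ribonuclease, had 58.8 and 37.9 FPKM in MI libraries, against 92.6, 85.2 and 100.3 FPKM in sedentary libraries (adjusted p = 0.00659, and 0.225 without MI replicate 2).

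**Figure D3:**
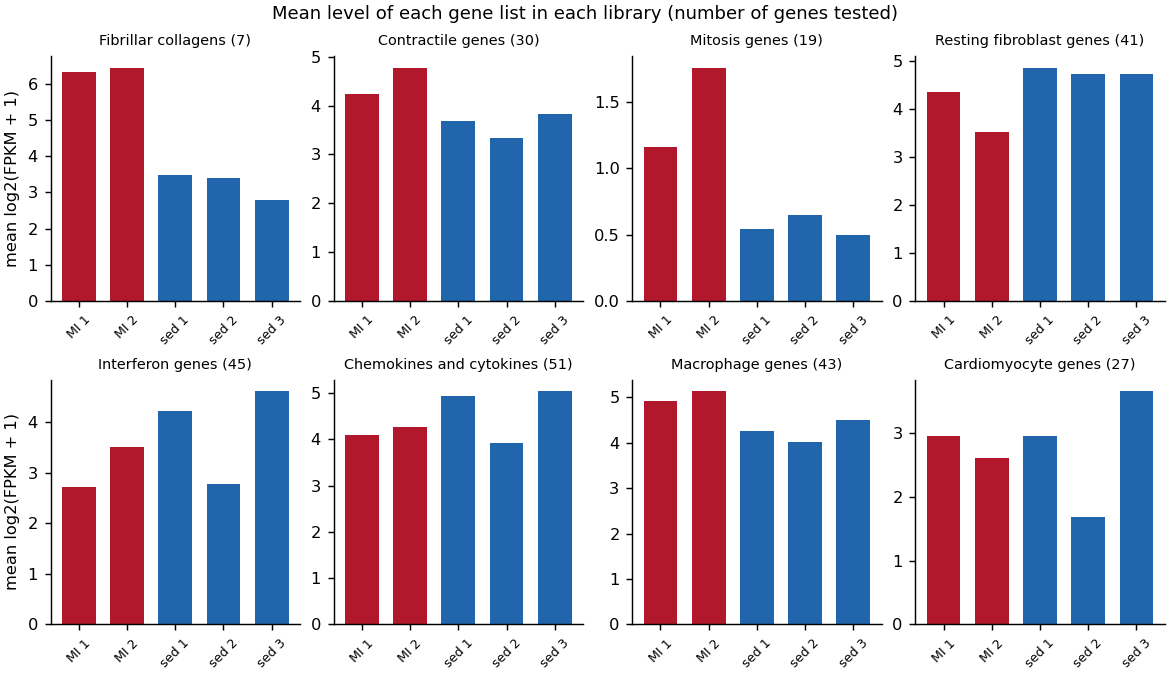
The plot of list levels gives the mean log2(FPKM + 1) over the members of 8 lists, with 1 bar per library from 0, MI libraries to the left of sedentary libraries. Fibrillar collagens are separate between groups with both MI libraries close together, whereas MI replicate 2 lies below MI replicate 1 for resting fibroblast genes and sedentary replicate 2 lies below the other sedentary libraries for interferon genes.

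Inflammatory cytokines and chemokines led the falls in log2 difference. Of 51 chemokine, cytokine and NF-kB feedback genes tested, 9 were lower and 5 higher, with a median of -0.33. Tnf, which encodes tumour necrosis factor, had 6.73 and 2.89 FPKM in MI libraries, against 90.3, 44.3 and 44.5 FPKM in sedentary libraries, and fell by 3.39 ± 0.51 on the log2 scale (adjusted p = 0.000267). The macrophage chemokines behaved alike: Ccl3 had 18.8 and 16.1 FPKM in MI libraries, against 221, 71.9 and 152 FPKM in sedentary libraries, and Ccl4 had 41.3 and 37.8 FPKM in MI libraries, against 319.7, 153 and 253 FPKM in sedentary libraries. The eosinophil chemokine Ccl11, made by fibroblasts, had 1.87 and 0.771 FPKM in MI libraries, against 11.04, 14.2 and 6.82 FPKM in sedentary libraries. These 4 calls held with any 1 library left out.

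Il10, an anti-inflammatory cytokine, had 2.97 and 0.970 FPKM in MI libraries, against 20.1, 14.2 and 11.6 FPKM in sedentary libraries (adjusted p = 0.0141, 0.233 without MI replicate 2 and 0.0555 without sedentary replicate 1). Retnla, a marker of tissue macrophages with close relatives that could share its reads, had 5.83 and 1.90 FPKM in MI libraries, against 11.3, 20.1 and 54.2 FPKM in sedentary libraries (adjusted p = 0.0115, and 0.236 without MI replicate 2). The neutrophil chemokine Cxcl2 had 105 and 82.7 FPKM in MI libraries, against 533, 195 and 398 FPKM in sedentary libraries. Its adjusted p of 0.0201 was over 0.05 without MI replicate 1, MI replicate 2 or sedentary replicate 1 (0.0636, 0.216 and 0.0846). Ccl5, a chemokine for T cells and monocytes, had 17.7 and 29.0 FPKM in MI libraries, against 148, 39.5 and 154 FPKM in sedentary libraries. Its adjusted p of 0.0347 was over 0.05 without MI replicate 1, MI replicate 2, sedentary replicate 1 or sedentary replicate 3 (0.207, 0.129, 0.125 and 0.0822) and with a pseudocount of 0.1 (0.06). The scavenging chemokine receptor gene Cxcr7 fell by 1.70 ± 0.32 (adjusted p = 0.00174, and 0.0962 without MI replicate 2). Not all cytokines moved this way: Il1b had 12.2 and 36.4 FPKM in MI libraries, against 8.57, 5.87 and 14.1 FPKM in sedentary libraries, and did not pass the test (adjusted p = 0.28). Il1rl1, the receptor for interleukin-33, rose by 2.30 ± 0.13 log2 units (adjusted p = 2.47e-09), with 4.29 and 6.46 FPKM in MI libraries, against 0.192, 0.368 and 0.276 FPKM in sedentary libraries. Without MI replicate 2, 4 members were lower and 3 higher; without MI replicate 1, 2 were higher; without sedentary replicate 2, 14 were lower.

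Interferon genes gave a value that hangs on 1 control library. Of 45 tested, 3 were lower and 1 higher, with a median of -0.77, and without sedentary replicate 2 the number lower was 18. Ifit1, induced by type I interferon, had 11.3 and 57.5 FPKM in MI libraries, against 124, 11.5 and 108 FPKM in sedentary libraries, so the groups overlapped through MI replicate 2 and sedentary replicate 2 (adjusted p = 0.603). Irf1, a transcription factor of the interferon response, had 10.2 and 10.0 FPKM in MI libraries, against 29.0, 22.8 and 32.3 FPKM in sedentary libraries, and fell by 1.38 ± 0.22 (adjusted p = 0.000427). Ifnb1, the gene of interferon beta itself, had 1.81 and 0.351 FPKM in MI libraries, against 16.1, 7.40 and 12.01 FPKM in sedentary libraries (adjusted p = 0.0115, and 0.203 without MI replicate 2). The count of higher members was 1 in the full comparison, 0 without MI replicate 1, MI replicate 2, sedentary replicate 1 or sedentary replicate 2, and 2 without sedentary replicate 3.

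Immediate early genes, which respond within minutes to stimulation, including the handling of cells, had 5 of 34 tested members lower and 2 higher, with a median of -0.53. Atf3, a stress-induced transcription factor, had 14.0 and 9.02 FPKM in MI libraries, against 39.6, 42.6 and 30.3 FPKM in sedentary libraries, and fell by 1.64 ± 0.24 (adjusted p = 0.000168). Egr1, an early growth response factor, had 47.5 and 23.7 FPKM in MI libraries, against 84.4, 198 and 67.4 FPKM in sedentary libraries, with sedentary replicate 2 the highest (adjusted p = 0.0127, and 0.296 without MI replicate 2). Ppp1r15a, which restarts protein synthesis after stress, fell by 1.68 ± 0.33 (adjusted p = 0.00285, and 0.115 without MI replicate 2). The number lower was 1 without MI replicate 2 and 2 without sedentary replicate 1, and the part of cell isolation in these genes was not tested.

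Macrophage and monocyte markers had 11 of 43 tested members higher and 1 lower, with a median of 0.70. In 26 of the 43 both MI libraries lay above all sedentary libraries and in 6 both lay below, beside 30.4% and 10.1% of all genes, and at an unadjusted p under 0.05, 18 were higher and 6 lower. Cd68, a lysosomal protein of macrophages, had 26.8 and 37.1 FPKM in MI libraries, against 25.6, 17.0 and 31.0 FPKM in sedentary libraries (log2 difference 0.39 ± 0.33, adjusted p = 0.521), and Csf1r, the receptor for macrophage growth factor, had 29.2 and 28.4 FPKM in MI libraries, against 23.6, 17.8 and 24.3 FPKM in sedentary libraries (adjusted p = 0.514). Neither gene passed the test, although the groups did not overlap for Csf1r. The following 3 markers did. Gpnmb, a lysosomal glycoprotein, had 10.2 and 20.8 FPKM in MI libraries, against 0.817, 0.901 and 0.611 FPKM in sedentary libraries, a log2 difference of 3.14 ± 0.31 (adjusted p = 1.95e-06). Trem2, a lipid receptor of macrophages, had 11.8 and 15.4 FPKM in MI libraries, against 1.54, 2.01 and 1.86 FPKM in sedentary libraries. Plac8, a monocyte gene, had 11.9 and 15.9 FPKM in MI libraries, against 0.566, 1.503 and 0.830 FPKM in sedentary libraries.

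The lysosomal protease Ctss had 108 and 147 FPKM in MI libraries, against 30.6, 23.9 and 47.8 FPKM in sedentary libraries, and Ctsd, another lysosomal protease made by many cells, had 191 and 260.3 FPKM in MI libraries, against 44.0, 39.6 and 48.9 FPKM in sedentary libraries. Psap, the precursor of lysosomal saposins, had 222 and 303 FPKM in MI libraries, against 139, 109 and 159.7 FPKM in sedentary libraries (adjusted p = 0.0187, 0.306 without MI replicate 2 and 0.0659 without sedentary replicate 2). The marker list holds Ctss but not Ctsd or Psap, and it holds Fn1 and Spp1, which fibroblasts also make. The number of markers higher was 7 without MI replicate 1, MI replicate 2 or sedentary replicate 2 and 6 without sedentary replicate 1, and it was 7 with libraries scaled to a common median. The number lower was 2, 0 and 4 without MI replicate 1, MI replicate 2 and sedentary replicate 2. In sham fibroblasts, the summed macrophage markers ranged from 3260 to 5380 FPKM, a range that holds both MI libraries.

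None of 28 endothelial markers tested was called in limma. With the length and GC trend removed 3 were lower, and with libraries scaled to a common median 1 was. At an unadjusted p under 0.05, 1 was higher and 4 lower. In 12 of the 28 both MI libraries lay below all sedentary libraries and in 2 both lay above, beside 10.1% and 30.4% of all genes, and summed FPKM ranged from 217 to 317 in MI libraries, against 330 to 459 in sedentary libraries. Pecam1, an adhesion protein of endothelium, had 12.5 and 10.3 FPKM in MI libraries, against 11.7, 17.0 and 14.7 FPKM in sedentary libraries. None of 27 cardiomyocyte markers was called; at an unadjusted p under 0.05, 2 were higher and none lower. Their summed FPKM was 307 in each MI library, against 94.9 to 568 in sedentary libraries, and 25300 to 32200 in sedentary cardiomyocytes. Myh6, the cardiac myosin heavy chain, had 6.65 and 4.37 FPKM in MI libraries, against 10.4, 2.38 and 12.4 FPKM in sedentary libraries, and Nppa (atrial natriuretic peptide) had 10.8 and 5.30 FPKM in MI libraries, against 0.616, 0.773 and 3.61 FPKM in sedentary libraries (log2 difference 1.86 ± 0.73, adjusted p = 0.124). Neutrophil and mast cell markers summed to between 11.6 and 14.4 FPKM in MI libraries, against 11.8 to 37.2 FPKM in sedentary libraries. Lymphocyte markers summed to between 4.60 and 5.80 FPKM in MI libraries, against 1.64 to 6.75 FPKM in sedentary libraries.

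Among 23 tested genes of the angiotensin, endothelin, adrenergic and natriuretic systems, 5 were higher and 2 lower, with a median of -0.18, and 3 were higher and none lower without MI replicate 2. The number lower was 1 without MI replicate 1, sedentary replicate 2 or sedentary replicate 3 and 4 with the length and GC trend removed. Another 14 members were under the filter on low values, and with a filter at an FPKM of 5, 1 was higher and 2 lower. Bdkrb1, the inducible bradykinin receptor, had 3.34 and 4.77 FPKM in MI libraries, against 0.130, 0.133 and 0.184 FPKM in sedentary libraries, a log2 difference of 2.12 ± 0.14 (adjusted p = 2.05e-08). Ednra, the endothelin-1 receptor, had 1.93 and 1.32 FPKM in MI libraries, against 0.280, 0.374 and 0.429 FPKM in sedentary libraries. The 2 falls were Adm, which encodes the vasodilator peptide adrenomedullin, and Ramp2, a subunit of its receptor. Adm had 3.08 and 4.75 FPKM in MI libraries, against 11.6, 7.49 and 19.9 FPKM in sedentary libraries (adjusted p = 0.0167), and was not called without MI replicate 1, MI replicate 2 or sedentary replicate 3 (0.146, 0.067 and 0.055). Ramp2 had 10.2 and 5.31 FPKM in MI libraries, against 17.6, 20.9 and 12.9 FPKM in sedentary libraries (adjusted p = 0.0138, 0.356 without MI replicate 2 and 0.0505 without sedentary replicate 2). Of 18 ion channel and gap junction genes tested, 2 were higher and none lower, beside 8.93% and 2.34% of all genes. With libraries scaled to a common median 2 were higher and 5 lower. Kcnn4, a calcium-activated potassium channel and 1 of the 2, had 2.89 and 2.93 FPKM in MI libraries, against 0.172, 0.513 and 0.247 FPKM in sedentary libraries. The angiotensin receptor gene Agtr1a was under the filter in both groups, with 0.351 and 0.233 FPKM in MI libraries, against 0.345, 0.337 and 0.366 FPKM in sedentary libraries. Axon guidance, ephrin and neural adhesion genes had 8 of 32 tested members higher and 1 lower, and 3 higher without MI replicate 2. Another 23 members were under the filter on low values, so these counts describe the tested members only. With no filter on low values, 16 were higher and none lower. With a filter at an FPKM of 5, 1 was higher and 1 lower. The split was 5 higher and 5 lower with the length and GC trend removed, and 3 higher and none lower with a pseudocount of 0.1. Cdh2 (N-cadherin, which couples fibroblasts and muscle cells) had 3.53 and 5.23 FPKM in MI libraries, against 0.372, 0.196 and 0.517 FPKM in sedentary libraries.

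Complement and acute-phase genes went both ways, with 4 of 23 tested members higher and 3 lower, beside 8.93% and 2.34% of all genes. Hp (haptoglobin) had 12.96 and 4.78 FPKM in MI libraries, against 0.260, 0.496 and 0.491 FPKM in sedentary libraries, a log2 difference of 2.67 ± 0.50 (adjusted p = 0.00235). Serping1, the C1 inhibitor, had 118 and 60.2 FPKM in MI libraries, against 186, 149 and 174 FPKM in sedentary libraries (adjusted p = 0.0309, 0.586 without MI replicate 2 and 0.098 without sedentary replicate 1). Leaving out MI replicate 2 gave 2 higher and none lower, and leaving out sedentary replicate 1 gave 1 lower. Retinoid, steroid and lipid metabolism had 6 of 34 tested members higher and 5 lower, beside 8.93% and 2.34% of all genes, with a median of -0.11. With libraries scaled to a common median, 3 were higher and 7 lower. Leaving out MI replicate 1 gave 3 higher, leaving out MI replicate 2 gave 2 higher and 1 lower, and leaving out sedentary replicate 2 gave 3 lower. Among the rises, Crabp2, which carries retinoic acid to the nucleus, had 2.30 and 4.45 FPKM in MI libraries, against 0.156, 0.169 and 0.145 FPKM in sedentary libraries, a log2 difference of 1.88 ± 0.18 (adjusted p = 1.37e-06). Among the falls, Rarres2, which encodes the chemoattractant chemerin, had 17.6 and 9.14 FPKM in MI libraries, against 29.7, 26.4 and 31.9 FPKM in sedentary libraries (adjusted p = 0.00371, and 0.179 without MI replicate 2).

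Detoxifying and metal-binding genes had 4 of 39 tested members higher and 4 lower, beside 8.93% and 2.34% of all genes, with a median of -0.03. With libraries scaled to a common median the split was 2 higher and 6 lower. Gstm1, a glutathione transferase, had 14.5 and 7.52 FPKM in MI libraries, against 47.9, 45.8 and 52.5 FPKM in sedentary libraries, and fell by 2.11 ± 0.27 (adjusted p = 4.06e-05), but near-identical family members could share its reads. Gpx7, a peroxidase of the endoplasmic reticulum, had 11.2 and 14.5 FPKM in MI libraries, against 4.51, 4.83 and 3.60 FPKM in sedentary libraries. The metallothionein genes were lower in level without passing the test: Mt1 had 82.5 and 94.2 FPKM in MI libraries, against 154, 124 and 171 FPKM in sedentary libraries (adjusted p = 0.0864), and Mt2 had 138 and 166 FPKM in MI libraries, against 296, 174 and 341 FPKM in sedentary libraries (adjusted p = 0.338). Mt1 was called lower with libraries scaled to a common median or with sham libraries added to the control. The numbers higher were 1, 2 and 7 without MI replicate 2, sedentary replicate 1 and sedentary replicate 3, and 2 were lower without MI replicate 2.

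None of 46 oxidative phosphorylation genes and none of 46 ribosomal protein genes was called in limma, and at an unadjusted p under 0.05 the numbers were 0 and 2, with medians of 0.24 and 0.22 beside 0.105 over all genes. The ribosomal protein gene Rpl41, not a member of that list, was called by a narrow margin (adjusted p = 0.0499) and was lost without MI replicate 1, MI replicate 2, sedentary replicate 1 or sedentary replicate 2 (0.0833, 0.422, 0.145 and 0.102). Glycolysis had 2 of 27 tested genes higher and none lower, with none higher without MI replicate 2 and 6 without sedentary replicate 3. Fatty acid oxidation had 2 of 24 higher and none lower, with none called without MI replicate 2, and amino acid and one-carbon synthesis had 1 of 29 higher and 1 lower, each lost without MI replicate 2. Of 24 cholesterol and lipid synthesis genes, 4 were higher and none lower, with a median of 0.29, and 2 were called without MI replicate 2. Another 7 members were under the filter on low values, and none was called with a filter at an FPKM of 5. Fasn, the fatty acid synthase, had 2.54 and 2.89 FPKM in MI libraries, against 1.19, 0.873 and 0.833 FPKM in sedentary libraries. The shares called higher in glycolysis, fatty acid oxidation and amino acid synthesis lay under the 8.93% of all genes.

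The authors' deposited table of comparisons holds a test of 5 day MI against a control for 13630 genes, with 1322 called significantly higher and 444 lower. Of the 1063 genes called in limma, 843 were significant in the same direction in the authors' deposited table. Its control is named for swimming, and which libraries it holds is not given in the sources used here.

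MI fibroblasts were last set against fibroblasts 10 days after TAC, which differ in the injury and in the day of collection. In the MI minus TAC contrast 57.3% of all genes tested were called, and 27.1% of all genes tested were higher in MI. Per doubling of transcript length, log2(FPKM + 1) changed by -0.226 and -0.231 in MI libraries, against -0.629 to -0.794 in TAC libraries of both days, and the part of this in the differences was not tested. Postn averaged 395 ± 36.1 FPKM in MI fibroblasts and 54.7 ± 12.8 FPKM in TAC fibroblasts, with a log2 difference of 2.85 ± 0.40 (adjusted p = 3.27e-05). Cthrc1 averaged 123 ± 11.5 FPKM in MI fibroblasts and 34.9 ± 38.0 FPKM in TAC fibroblasts, and Col1a1 averaged 599 ± 84.5 FPKM in MI fibroblasts and 182 ± 63.8 FPKM in TAC fibroblasts (log2 differences 2.43 ± 0.67 and 1.76 ± 0.37, adjusted p = 0.00638 and 0.000792). Spp1 stood further apart still, at 3.96 log2 units.

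Meox1 went the other way between the injuries, averaging 10.2 ± 0.735 FPKM in MI fibroblasts and 28.1 ± 2.77 FPKM in TAC fibroblasts, a log2 difference of -1.37 (adjusted p = 7.36e-05). Some genes did not pass the test of this difference: Mfap4 (-0.07, adjusted p = 0.853), Thbs4 (0.65, adjusted p = 0.0529), Trem2 (0.10, adjusted p = 0.82), Ccl3 (-0.20, adjusted p = 0.746) and Gsn (0.05, adjusted p = 0.944). Means are given ± SD (n = 2 MI and 3 TAC libraries). Both contrasts use 1 fit, and the comparisons of each injury with sedentary fibroblasts share the sedentary libraries.

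**Figure D4:**
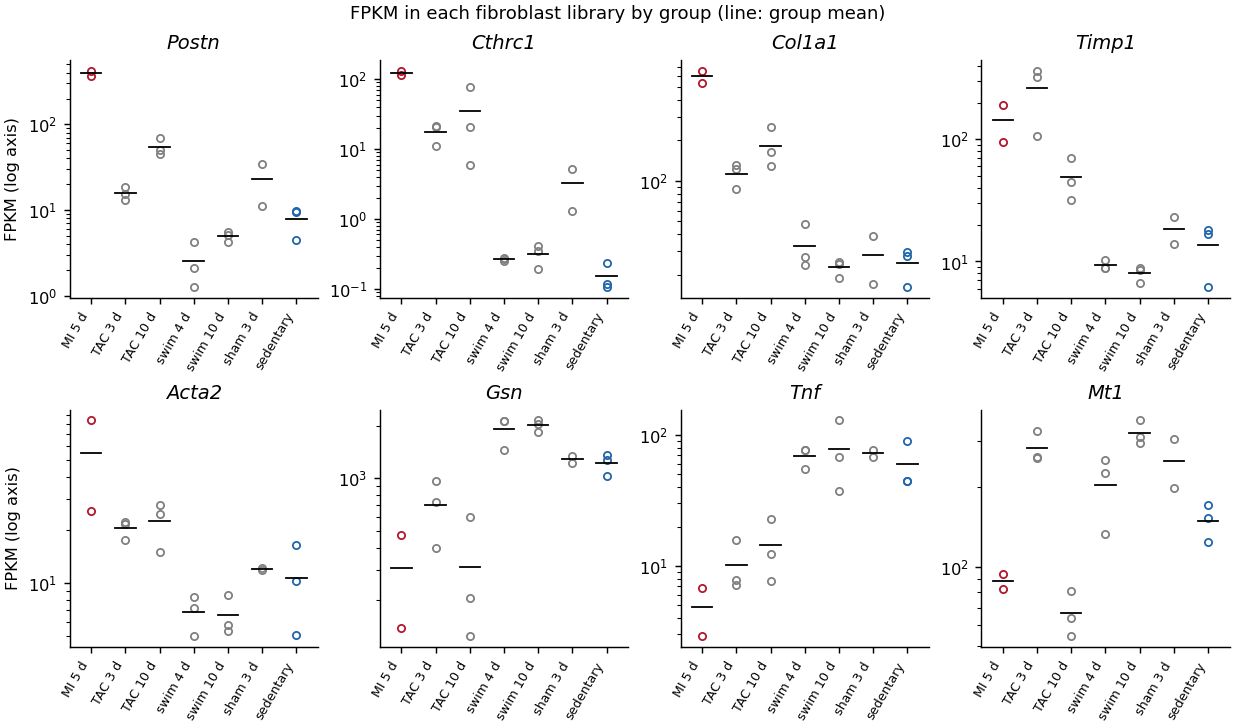
The plot of 8 genes across fibroblast groups gives FPKM on a log axis with 1 point per library for Postn, Cthrc1, Col1a1, Timp1, Acta2, Gsn, Tnf and Mt1, from MI at the left to sedentary at the right. Both MI libraries lie above all sedentary libraries for Postn, Cthrc1, Col1a1, Timp1 and Acta2, and below them for Gsn, Tnf and Mt1.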

How the data were processed

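Stranded libraries were made from poly-A RNA, per the labels' protocols. The authors computed FPKM with Cufflinks 2.0.2 on mm10, per the submitters' processing notes; no source names the aligner or the annotation. The deposited table gives FPKM per gene and library, and its 44 columns of confidence bounds were not used. The authors' deposited comparison table supplied q-values and a test statistic, a score whose sign was read for the direction. A finite negative score was read as higher in MI, and an infinite score was read by the opposite rule. Some symbols had become dates, and 27 were recovered from their loci.

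From these values, log2 of FPKM plus 1 entered a linear model in limma 3.58.1 under R 4.3.3, with trended and robust variance. All 19 fibroblast libraries shared 1 estimate of the spread, and genes needed an FPKM of at least 1 in at least 2 of them. Counts and medians of a gene list cover only the members that passed this filter. The contrasts were MI minus sedentary and MI minus 10 day TAC, two-sided. A call is a Benjamini-Hochberg adjusted p under 0.05 over the 9425 genes tested. The added 1 pulls the differences of low genes toward 0, while folds are ratios of mean FPKM. FPKM keeps no read counts, so counting error is not given. The model was also run on simulated data with 200 changed genes. There the genes were independent and no library stood apart, unlike here, so that run does not show how reliable these calls are.

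The members and lists were chosen with earlier results of these data known. Named genes were the 15 largest rises and falls (where the higher group averaged 5 FPKM or more), the 15 largest gains and losses of FPKM, a fixed set of 18 genes, and members of the lists. Alternatives (pseudocount, filter, scaling, length and GC trend, variance settings, libraries in the fit, each library left out) were applied 1 at a time, except the replicate block, which was added to the fit on 5 libraries.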

Additional observations from a re-analysis of the deposited data

How the results depend on the processing

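Beside 842 genes higher and 221 lower in MI than in sedentary fibroblasts, no filter on low values gave 1403 higher, and a filter at an FPKM of 5 gave 395 higher of the 4191 then tested. Scaling the libraries to a common median gave 438 lower, removing a length and GC trend gave 516 lower, and adding the sham libraries to the control gave 337 lower. A fit on the 5 libraries alone, with fewer samples to estimate the spread, gave 504 higher and 87 lower. With 1 library left out in turn, the count ranged from 285 (without MI replicate 2) to 1039 (without sedentary replicate 3) higher and from 25 (without MI replicate 2) to 265 lower. The cause of these shifts was not tested.

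The replicate numbers do not mark a stated pairing. Deviations from the group means correlated at -0.171 for number 1 and -0.361 for number 2. For MI replicate 1 with sedentary replicate 2 the value was 0.361. The deviations of the MI pair mirror each other by construction, so these values cannot show whether libraries were paired. With the replicate block in the fit on 5 libraries, 494 genes were higher and 151 lower. Of 124 called genes named in the text, 98 were called with the block and 97 in the fit on 5 libraries without it, and all 124 kept their direction in both. Of the same 124, 86 were called without MI replicate 2 and 113 without sedentary replicate 1. Between 118 and 124 were called under every other alternative but the filter at an FPKM of 5, under which 100 were tested and all were called. None of the 124 reversed under any alternative.

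Some uncalled genes changed sign near 0. Myh6 was at 0.043 (log2) with the replicate block and between -0.95 and 0.043 with 1 library left out. Pecam1 was at 0.052 with sham added to the control. With 1 library left out, Ptprc ranged from -0.41 to 0.12, Ifit1 from -2.17 to 0.077 and Rn45s from -0.81 to 2.60. With FPKM and no counts, the depth behind low values is unknown, and the MI spread rests on a single pair of libraries.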
